A study of Bos taurus with 8 samples.

Results

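The genes examined here code for the non-collagenous scaffold of basal laminae: the laminin chains LAMA1, LAMA4, LAMA5, LAMB1, LAMB2 and LAMC1, the nidogens NID1 and NID2, and the heparan sulfate proteoglycans perlecan (HSPG2) and agrin (AGRN). They were taken by gene symbol from the platform annotation of the array, which gave 12 probes for the 10 genes, among 43794 probes and 15229 symbols in all. LAMC1 had 3 probes and the other genes 1 each. All 12 probes passed the filter on dim probes, a mean log2 intensity of at least 7. The transcripts were measured in mural granulosa cells, the cells lining the inner wall of the follicle, scraped from Holstein follicles more than 9 mm wide in ovaries obtained at slaughter. Both groups, 4 growing and 4 atretic follicles, shared this breed, origin and size, and were told apart by flow cytometry of DNA content, as the share of cells that had lost DNA was lowest in the follicles called growing and highest in those called atretic. The stage of the oestrous cycle was unknown, and no source used here says whether each follicle came from its own animal, so the tests measure only the spread between these follicles. For each of 4 pairs, an atretic and a growing follicle were put together on 2 arrays with their dyes exchanged, 8 arrays in all.

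A basal lamina is a thin sheet of matrix beneath an epithelium. Laminins are cross-shaped trimers of an alpha, a beta and a gamma chain that polymerise on the cell surface, where integrins and dystroglycan bind them. Nidogens bridge the laminin sheet to the network of collagen IV, and perlecan and agrin add heparan sulfate chains that hold growth factors. In the ovarian follicle the basal lamina separates the granulosa cells from the vascularised theca, and the granulosa cells make much of it. Bovine granulosa cells also lay down small deposits of the same material between each other, called focimatrix.

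The median spot was 4.10 to 5.45 times its local background in the red channel (Cy5) and 8.97 to 13.6 times in the green one (Cy3), and 48.4% to 72.1% of probes per channel exceeded the 95th percentile of the negative control spots. Arrays of the same 2 follicles correlated at 0.624 to 0.776 across probes. Pair 1 ran against the others, with correlations of -0.22, -0.37 and -0.06 to pairs 2, 3 and 4, whereas those pairs correlated with each other at 0.227 to 0.502. Pair 1 was kept in the direction that its labelled dyes give. Granulosa markers were present, with 8 of 9 above the negative controls in every channel, among them the FSH receptor. Levels below are normalised log2 intensities per follicle, averaged over its 2 arrays and listed from pair 1 to pair 4. Ratios are log2 values, positive where the atretic follicle was brighter, given with the limma standard error (SE) over n = 4 pairs.

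Perlecan transcripts were 2.94-fold lower in atretic follicles, and this was the only one of the 12 probes past the study's threshold, a fold of at least 1.5 with an unadjusted p under 0.05. Over all 36294 probes tested, 3.51% passed it (1.81% higher and 1.71% lower), so 1 of 12 lies near the background share. Of the probes past it, 51.5% were higher in atretic follicles, and 72.8% with median centring in place of loess and quantiles. The largest mean differences in the opposite direction belonged to the laminin chains LAMB1 and LAMA1, neither of which passed. By gene, 7 of the 10 had a positive mean ratio and 3 a negative one, with a median of 0.14, against 0.01 over the 13625 genes tested. The median over the 10 genes was 0.55, -0.17, 0.23 and 0.41 in pairs 1 to 4, where all genes tested lay between 0.01 and 0.02. No probe of any gene passed an adjusted p of 0.05 in limma, where 2324 (6.4%) had an unadjusted p under 0.05, 2 of them (HSPG2 and NID1) among the 12 here, and the adjusted p of the members ran from 0.716 to 0.998. With the pair as a replicate block over the 8 separate arrays, 3 member probes (HSPG2, LAMA1 and LAMB1) and 2243 of all probes passed the study's threshold, and 21 of all probes passed the adjusted one. In bulk RNA such as this, fewer cells of a type and less RNA per cell cannot be told apart.

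**Figure D1:**
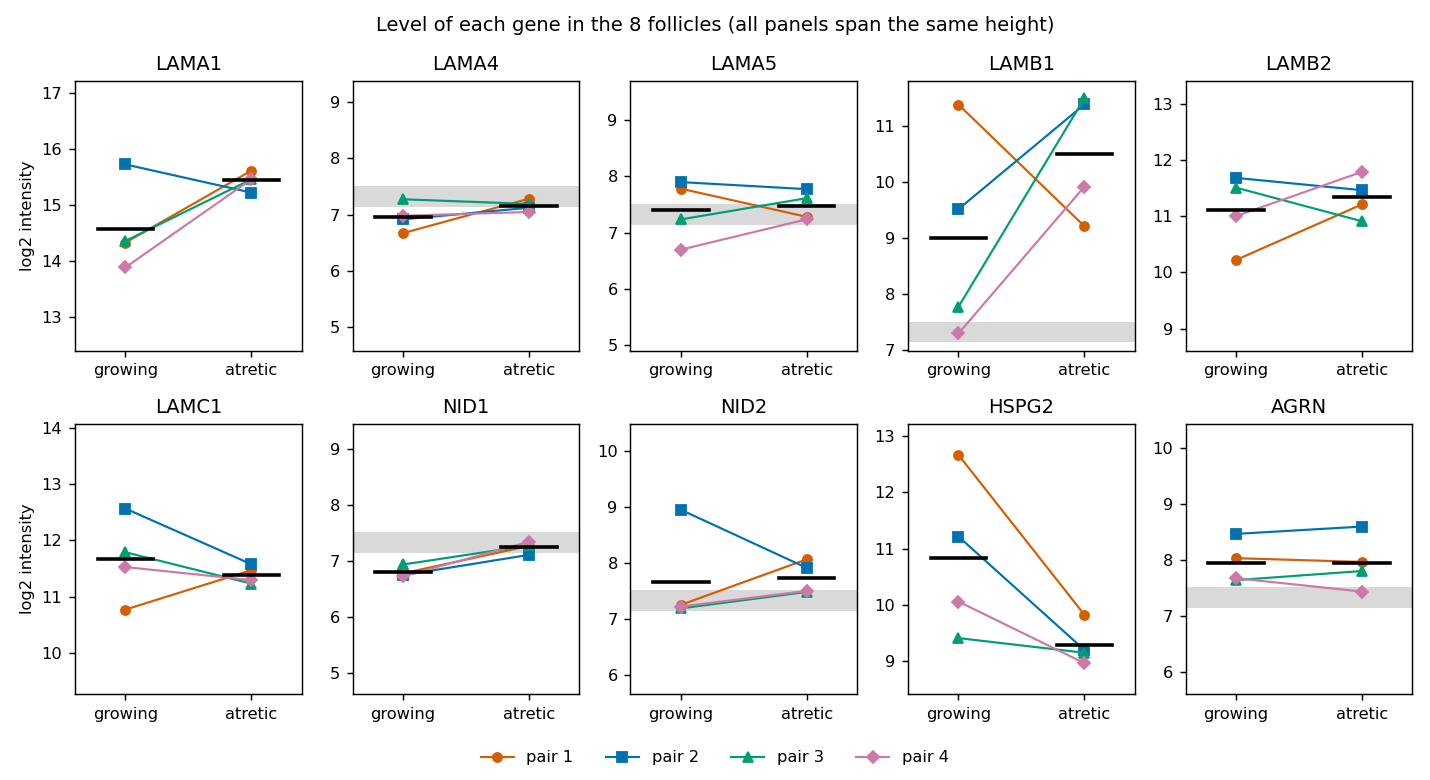
Normalised log2 intensity of each gene (brightest probe) in the 4 growing and 4 atretic follicles. Lines join the follicles of a pair, black bars are means and the grey band, seen where it falls within a panel, spans the limits of the negative controls over the arrays and channels (7.14 to 7.51). HSPG2 was lower in the atretic follicle of every pair, and LAMB1 was lower in pair 1 and higher in pairs 2, 3 and 4.

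Perlecan is a large proteoglycan with many domains that binds laminin, nidogen and growth factors. HSPG2 stood at 12.67, 11.21, 9.41 and 10.06 in the growing follicles of pairs 1 to 4, and at 9.82, 9.20, 9.15 and 8.96 in the atretic ones. The growing follicles of pairs 1, 2 and 4 were above all atretic follicles, and that of pair 3 lay within their range. The 4 atretic follicles were alike (mean 9.28, SD 0.37), whereas the growing ones were spread over several-fold (mean 10.84, SD 1.43). The pair ratios were therefore uneven, at -2.84, -2.02, -0.26 and -1.10, with a mean of -1.55 ± 0.45 (95% interval -2.70 to -0.41, limma adjusted p = 0.739). All 4 ratios were negative, as they were on both dye orientations of each pair. The levels, which are means over arrays, were less stable in pair 3. There the arrays read 9.78 and 8.51 for the atretic follicle, further apart than the SD of 0.37, and 9.99 and 8.82 for the growing one. A common sign in all 4 pairs was found for 14.7% of all probes tested, and for 2 of the 12 here (HSPG2 and NID1). HSPG2 kept its call in 18 of 19 alternatives and lost it without pair 2, where the ratio was -1.40 (adjusted p = 0.875, with 0.0426 to 0.996 over all alternatives). The low end of 0.0426 counted dye-swapped arrays of the same extracts as independent, so it overstates the evidence. With the pair as a replicate block the limma adjusted p was 0.0686. The block applied the same correlation (0.46) to all probes. Its SE for HSPG2 (0.320) was close to that with the arrays as independent (0.318) and below the 0.445 over the 4 pairs. The value of 0.0686 may thus overstate the evidence too.

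Agrin, the second heparan sulfate proteoglycan of the group, is best known for clustering acetylcholine receptors at the neuromuscular junction. AGRN had levels of 8.03, 8.47, 7.64 and 7.68 in growing follicles, against 7.97, 8.60, 7.81 and 7.44 in atretic ones. Its levels differed more between pairs than within them, and both follicles of pair 2 were the highest. The mean ratio was -0.0028 ± 0.119 with a 95% interval from -0.31 to 0.30, and its sign changed with the normalisation, so it has no direction. The interval of this measured ratio excludes a difference of 1.5-fold either way, while that of HSPG2 does not reach 0. AGRN was dim, however, with a mean level of 7.95, so its interval bears on the measured ratio only.

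The alpha chain sets which receptors a laminin binds. LAMA1, the alpha chain of the laminin of early embryos and of several epithelial basal laminae, was bright in every follicle. It stood at 14.33, 15.72, 14.36 and 13.89 in growing follicles, against 15.61, 15.22, 15.46 and 15.46 in atretic ones. The 4 atretic levels lay within a narrow band (SD 0.16), above 3 of the 4 growing ones. However, the 2 arrays of each atretic follicle were further apart than this SD, with 15.18 and 15.73 in pair 3. In all 4 pairs the atretic follicle read higher in Cy3, so the narrow band is one of averages over dyes. The growing follicle of pair 2 had the highest level of all 8 (growing SD 0.79). The ratios were 1.28, -0.50, 1.10 and 1.57, with a mean of 0.86 ± 0.37 (95% interval -0.10 to 1.82, limma adjusted p = 0.802), a 1.82-fold difference that did not pass. Without pair 2 the mean was 1.32 and passed the study's threshold, as it did with the pair as a replicate block (0.86 ± 0.28, limma adjusted p = 0.235, with 0.162 to 0.996 over all alternatives). The low end of 0.162 again counted dye-swapped arrays as independent, with an SE (0.27) close to that of the block. None of its spots reached the scanner's limit.

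The other alpha chains were dim. LAMA4, the alpha chain of endothelial basal laminae, exceeded the negative controls on 1 array of 8 for either phase. Its levels of 6.67 to 7.27 (growing) and 7.04 to 7.28 (atretic) were thus at the limit of detection, and its mean ratio was 0.20 ± 0.15. LAMA5, which is widespread in epithelia and vessels, was above them on 5 growing and 6 atretic arrays. Its levels were 7.78, 7.90, 7.23 and 6.70 in growing follicles, against 7.28, 7.77, 7.61 and 7.24 in atretic ones, and the phases overlapped. The mean ratio of LAMA5 was 0.07 ± 0.21. The arrays of opposite dye agreed in sign in 1 of 4 pairs for each of these genes, against 4 of 4 for LAMA1, LAMB1, LAMB2 and HSPG2.

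**Figure D2:**
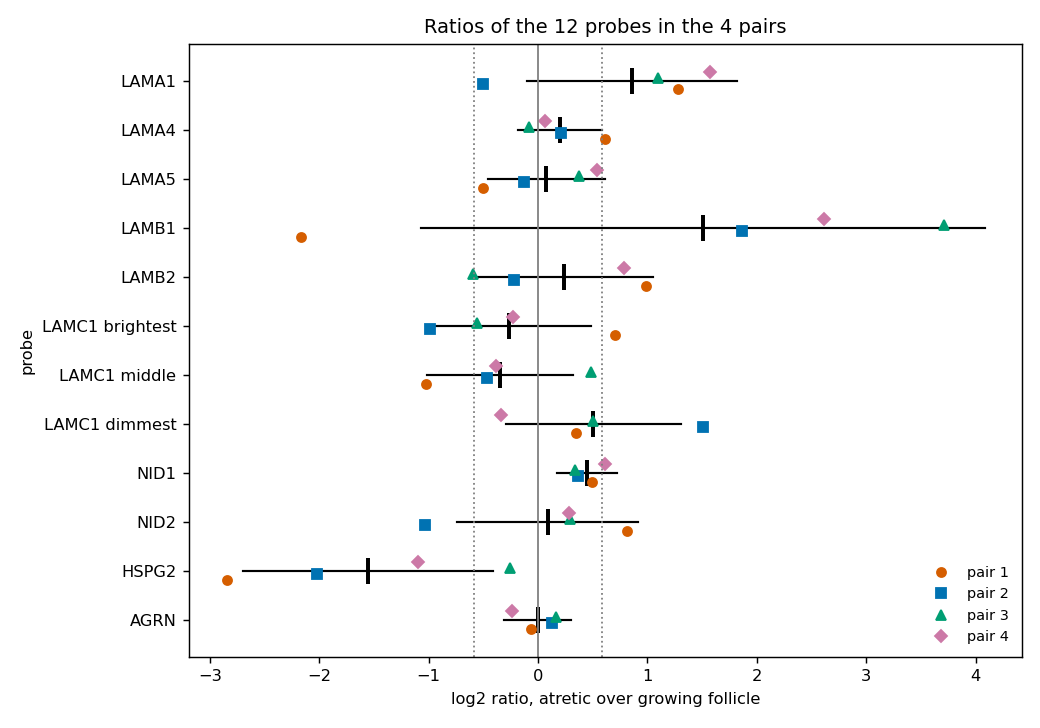
Log2 ratio of atretic over growing follicle for the 12 probes. Symbols are the 4 pairs (dye swaps averaged), the vertical tick is the mean and the horizontal line its 95% interval, and dotted lines mark a 1.5-fold difference. The interval excluded 0 for HSPG2 (-2.70 to -0.41) and NID1 (0.18 to 0.73, from growing levels not above the negative controls), and LAMB1 had the widest one (-1.07 to 4.08).

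Of the beta chains, LAMB1 varied most. This chain, found in most embryonic and many adult laminins, had levels of 11.37, 9.51, 7.78 and 7.30 in growing follicles, against 9.21, 11.38, 11.49 and 9.92 in atretic ones. The growing follicle of pair 1 was as bright as the atretic ones of pairs 2 and 3, and the growing ones of pairs 3 and 4 were close to the negative controls, with 7 of 8 growing arrays above them. Pair 1 thus had a ratio of -2.17, opposite to the 1.86, 3.71 and 2.61 of the other pairs. The mean was 1.51 ± 1.00 (95% interval -1.07 to 4.08, limma adjusted p = 0.861) and did not pass. Leaving out pair 1 gave 2.73 ± 0.39, past the study's threshold, and leaving out pair 3 gave 0.77. With the pair as a replicate block the mean of 1.51 ± 0.67 passed as well (adjusted p = 0.477 in limma, with 0.169 to 0.996 over all alternatives). The SE of LAMB1 with the arrays counted as independent was close to this, at 0.70. The same split, pair 1 opposite to 3 pairs that share a sign, was found for 19.5% of all probes tested.

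LAMB2 replaces LAMB1 in other laminins, such as those of the neuromuscular junction and the kidney glomerulus. Its levels were 10.22, 11.68, 11.51 and 11.005 in growing follicles, against 11.21, 11.46, 10.91 and 11.79 in atretic ones, so that the phases overlapped and only the growing follicle of pair 1 stood below all atretic ones. The ratios were 0.99, -0.22, -0.60 and 0.79, which gave 0.24 ± 0.31. In pairs 1, 2 and 3 LAMB2 thus had the sign opposite to LAMB1, while both were positive in pair 4. The mean of LAMB2 turned to -0.01 without pair 1.

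The gamma chain LAMC1 is shared by most laminins, and its 3 probes did not give the same picture. The brightest had 10.77, 12.57, 11.79 and 11.53 in growing follicles, against 11.47, 11.58, 11.23 and 11.29 in atretic ones. On this probe, as for LAMA1, the atretic follicles were close together (SD 0.16) and the growing ones more spread (SD 0.74). The arrays of the atretic follicle of pair 4, however, read 11.54 and 11.05. The atretic and growing SDs were 0.34 and 0.45 for the middle probe, and 0.65 and 0.26 for the dimmest. The ratios of the brightest were 0.70, -0.99, -0.56 and -0.23. Their mean of -0.27 ± 0.29 did not pass (limma adjusted p = 0.907), although it passed the study's threshold without pair 1, at -0.59. The middle probe had ratios of -1.03, -0.47, 0.48 and -0.39 (mean -0.35 ± 0.26) and passed only without pair 3, at -0.63. The dimmest had 0.35, 1.504, 0.50 and -0.34 (mean 0.50 ± 0.31) and was above the negative controls on 5 of 8 growing arrays. In pair 2 the dimmest and the brightest probe thus lay on opposite sides of 0. Which transcript each probe reads was not tested, as no probe sequence was used here.

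The nidogens were dim. NID1, the linker between laminin and collagen IV, had levels of 6.78, 6.75, 6.94 and 6.73 in growing follicles, against 7.27, 7.11, 7.28 and 7.34 in atretic ones. The phases did not overlap, which was so for 3.11% of all probes tested and for this 1 of the 12 here. However, 0 of 8 growing and 3 of 8 atretic arrays were above the negative controls, so the growing level has only a bound, which lies above the atretic mean, and no fold is given. The measured ratios of 0.49, 0.36, 0.34 and 0.61 (mean 0.45 ± 0.11, limma adjusted p = 0.716) are therefore differences between values near the limit of detection. The difference also depended on the dye. It was 0.89 on the arrays with the atretic follicle in Cy5, whereas on those with the growing follicle in Cy5 the ratios were 0.13, -0.12, -0.12 and 0.17.

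NID2, the second nidogen, was above the negative controls on all 8 atretic but only 3 growing arrays. It stood at 7.26, 8.95, 7.19 and 7.23 in growing follicles, against 8.07, 7.91, 7.49 and 7.50 in atretic ones. The growing follicle of pair 2 was highest and the other growing follicles lay below every atretic one. The ratios were 0.81, -1.03, 0.29 and 0.28, with a mean of 0.09 ± 0.32. Without pair 2 the mean was 0.46 and without pair 1 it was -0.15. The growing follicle of pair 2 was also the highest of the 8 for LAMA1 and for the brightest LAMC1 probe.

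Collagen IV, the other network of the basal lamina, showed no common direction. Of 8 genes for collagen IV chains and the associated collagens XV and XVIII, 6 had a positive and 2 a negative mean ratio (median 0.22), and 0 passed the study's threshold, against 5.11% of all genes. COL4A1 and COL4A2, whose products assemble into the common collagen IV trimer, had mean ratios of opposite sign. COL4A1 was at 0.63 ± 0.40 and COL4A2 at -0.92 ± 0.55. In pairs 2 and 4, however, they shared a sign (-0.55 and -2.17 in pair 2, 1.90 and 0.82 in pair 4). COL4A5, a chain of the collagen IV of the kidney glomerulus, had the largest mean at 1.14 ± 0.55. Its ratios were -0.89, 1.66, 1.43 and 2.35, with the same signs in each pair as LAMB1, and its other probes had smaller means of 0.44 and 1.03. COL4A3, its partner in that trimer, was at -0.20 ± 0.30.

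Of 8 further genes for laminin chains and their relatives, the netrins, 4 were on the array and 3 were tested, all with a positive mean and 0 past the threshold. NTN4, a netrin that binds laminin gamma chains, had levels of 12.45, 10.60, 8.98 and 9.78 in growing follicles, against 10.13, 12.02, 11.72 and 11.63 in atretic ones. Its ratios of -2.32, 1.43, 2.74 and 1.85 were split in the same way as those of LAMB1 and averaged 0.93 ± 0.87. NTN1 was at 0.26 ± 0.39 and LAMB3, a chain of epidermal laminin, at 0.05 ± 0.12. Among 8 tested linkers and associated matrix genes, 4 had a positive and 4 a negative mean (median 0.01) and 0 passed. Fibronectin (FN1) had 3.78, -3.04, -0.92 and 3.35 (mean 0.79 ± 1.29), the fibulin FBLN1 2.61, -4.31, -0.40 and 0.91 (mean -0.30 ± 1.15), and the proteoglycan versican (VCAN) 1.47, -2.86, -1.77 and 0.05 (mean -0.78 ± 0.75). FN1, FBLN1 and VCAN were all higher in the atretic follicle of pair 1 and lower in those of pairs 2 and 3. FBLN2 was at 0.16 ± 0.11.

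**Figure D3:**
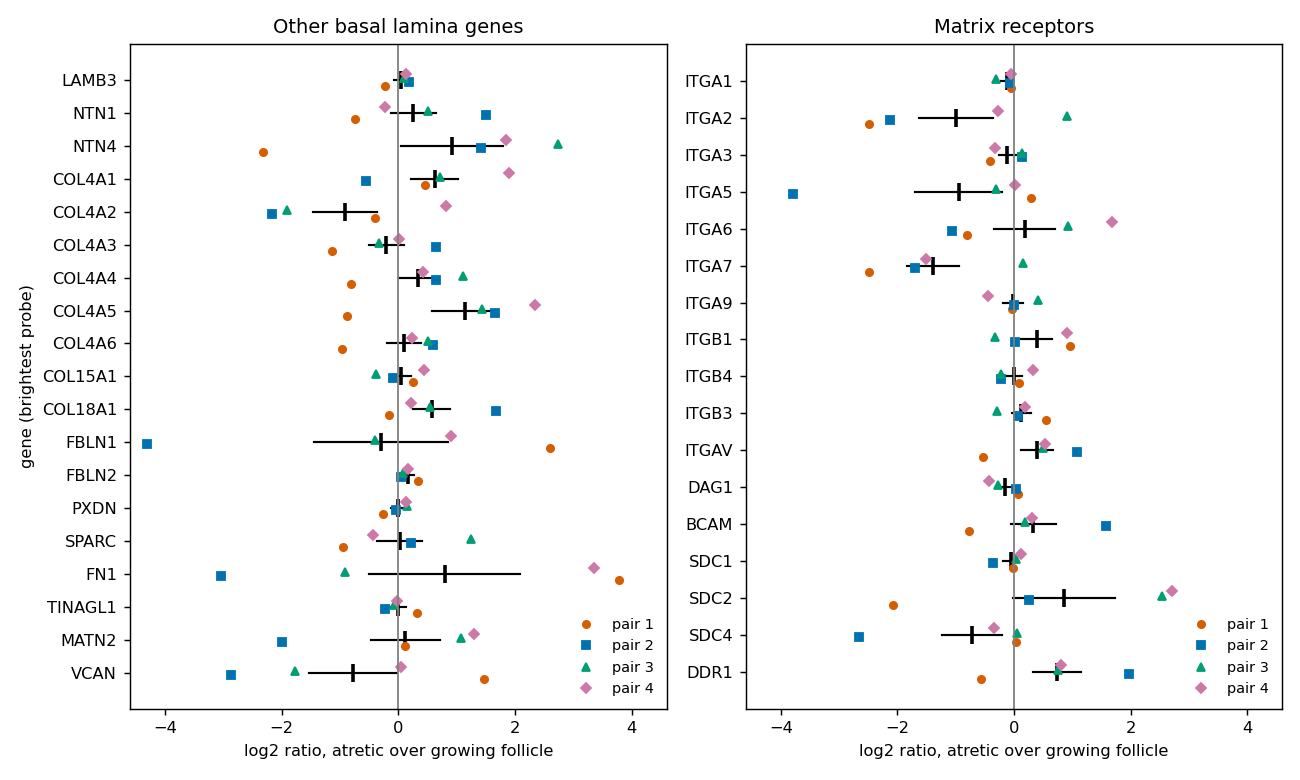
Log2 ratio of atretic over growing follicle for other basal lamina genes (left) and matrix receptors (right), each by its brightest probe. Symbols are the 4 pairs, the tick is the mean and the line its standard error; ITGA7 was the only one past the study's threshold, with negative ratios in pairs 1, 2 and 4.

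Among 17 receptors of laminin, perlecan and neighbouring matrix, 7 had a positive and 10 a negative mean (median -0.02), and 1 passed the study's threshold, a share near the 5.11% of all genes. This was ITGA7, an alpha chain of laminin-binding integrins known best from muscle, at -1.39 ± 0.44 (limma adjusted p = 0.759). Its levels were 12.61, 11.21, 9.84 and 10.69 in growing follicles, against 10.12, 9.51, 9.98 and 9.17 in atretic ones. The growing follicles of pairs 1, 2 and 4 were above all atretic ones, with ratios of -2.49, -1.71, 0.15 and -1.52. ITGA2, which binds collagen and laminin, was also highest in the growing follicles of pairs 1 and 2 (9.55 and 10.23) and had a mean of -0.996 ± 0.629. The largest positive means were those of the syndecan SDC2 (0.86 ± 0.88), a cell surface heparan sulfate proteoglycan, and of the collagen receptor DDR1 (0.74 ± 0.41, with its other probe at -0.01). SDC2 had ratios of -2.07, 0.26, 2.53 and 2.71, once more with pair 1 opposite to the rest.

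**Figure D4:**
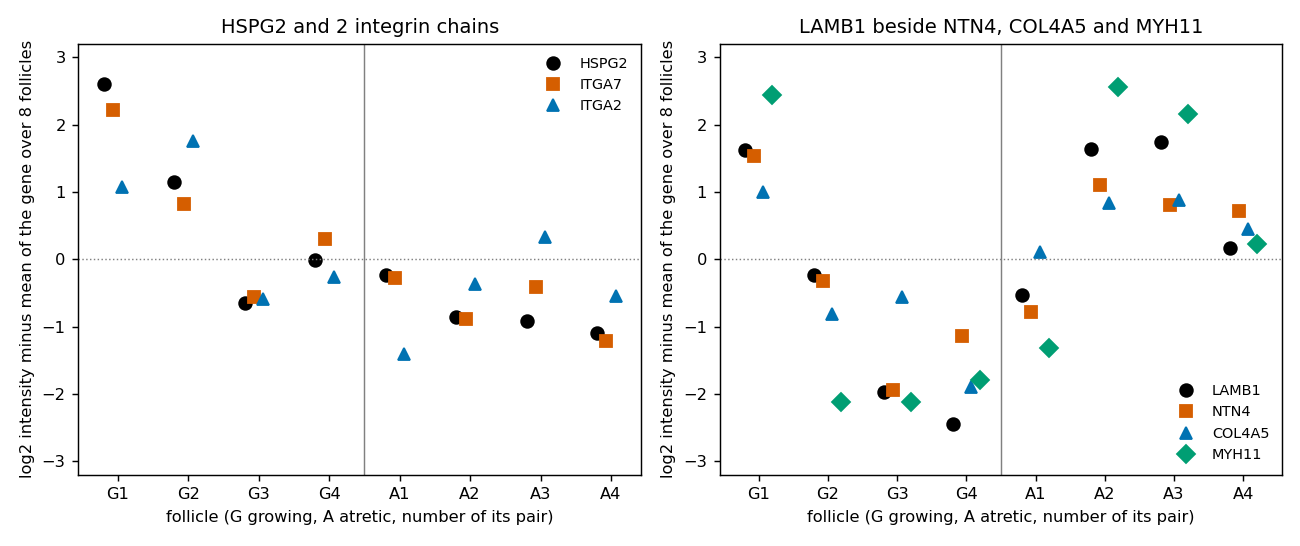
Level in each follicle minus the mean of that gene over the 8 follicles (log2), for HSPG2 with the integrin chains ITGA7 and ITGA2 (left) and for LAMB1 with NTN4, COL4A5 and the smooth muscle myosin MYH11 (right). G and A are growing and atretic follicles with the number of their pair; HSPG2 and ITGA7 were highest in G1 and G2, and LAMB1 was high in G1, A2 and A3. The genes set beside each member were picked after their values were seen.

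Genes of other cells that make basal lamina were read beside these values. Of 8 endothelial markers, 0 were above the negative controls on every array in both phases, and 4 were above them in no more than 8 of the channels. The endothelial adhesion molecule PECAM1 was at 6.72 to 7.15 over the 8 follicles, with 1 channel above the controls. The log2 of their summed level was 10.1 to 10.9 in atretic and 10.1 to 11.6 in growing follicles. It was highest in the growing follicles of pairs 1 and 2 (11.25 and 11.62), where HSPG2 was highest too. In these follicles the VEGF receptor KDR was at 10.41 and 11.03, while CDH5 (7.68 and 7.38) and PECAM1 (6.93 and 6.72) were near the controls. Of 7 smooth muscle and pericyte markers, 3 were above the controls in no more than 8 channels and 3 in all, and the summed level was 12.4 to 13.4 in both phases. MYH11, a smooth muscle myosin, had 12.17, 7.60, 7.60 and 7.93 in growing follicles, against 8.40, 12.28, 11.88 and 9.95 in atretic ones, with the sign of LAMB1 in each pair. The other markers of this list did not share that pattern. The pericyte proteoglycan CSPG4 had ratios of 1.34, -0.05, -1.84 and -0.71, opposite to LAMB1 in each pair, smooth muscle actin (ACTA2) had -0.29, 0.17, -0.58 and -0.32, and TAGLN lay at 7.2 to 7.4 in every follicle. Summed fibroblast markers were highest in the growing follicle of pair 2 (13.63, the other follicles 11.9 to 12.9), as LAMA1, the brightest LAMC1 probe and NID2 were. Of the single markers, COL1A1, COL1A2 and LUM were highest there. However, DCN was highest in the atretic follicle of pair 1 (11.44), COL3A1 in the growing one of pair 3 (10.65) and PDGFRA in the atretic one of pair 2 (11.73). Summed theca markers were 12.3 to 13.7 in atretic and 11.8 to 12.5 in growing follicles. Their brightest genes weighed most in this sum. PTCH1 ranged from 10.48 to 11.97. LHCGR had 8.22, 6.76, 10.51 and 9.65 in growing follicles, against 13.05, 7.70, 8.06 and 11.25 in atretic ones. By mean ratio, 3 of the 7 theca markers were higher in atretic follicles and 4 lower, the theca enzyme CYP17A1 among the latter. CYP17A1 stood at 7.72, 9.11, 9.12 and 7.60 in growing follicles, against 9.49, 7.42, 7.36 and 7.19 in atretic ones. Leukocyte markers summed to 10.1 to 10.7 in atretic and 10.2 to 10.9 in growing follicles. The part of other cells in the values of the basal lamina genes was not tested.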

How the data were processed

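Granulosa RNA of 4 growing and 4 atretic follicles was amplified, labelled and hybridised in pairs by the authors on 8 two-colour arrays, with dyes exchanged. The authors deposited scanner intensities of each spot and of its local background as median pixels in both channels, together with processed log2 ratios (background subtraction, loess, quantiles), which served as an alternative. Between 4 and 50 spots of an array had been excluded by hand during image analysis. They were left out, and none belonged to a member.

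Intensities were background-corrected (normexp, offset 50), normalised by loess within and quantiles between arrays, turned to atretic over growing and averaged over dye swaps, since both arrays of a pair hold the same extracts (8 of 8 arrays correlated best with their own pair). The 1426 control spots had no weight in loess and were then left out. The mean ratio was tested against 0, two-sided, for the 36294 probes that had a value in every pair and averaged 7 or more in log2 intensity (limma 3.58.1, R 4.3.3), and p-values were adjusted over all of them by the Benjamini-Hochberg method. The procedure was run on simulated data as a check of the code. The planted differences were larger than any mean ratio of a member and the spread between pairs smaller than measured. The simulation therefore does not tell how well differences are found in these data. A gene was read by its brightest tested probe. Symbols came from the platform annotation (21790 probes with 1 symbol, 22004 unnamed), and all 10 members have a RefSeq gene of that symbol. No coordinates are printed, because no source used here names the annotation's genome build. The limit of detection was the 95th percentile of 153 negative control spots per channel and array.

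All members were described. Of each other list, the 2 largest positive and 2 largest negative mean ratios, where there were as many, and any gene past the study's threshold were to be named, and cell markers by their levels. LAMB3, FDX1, HSD3B1, LHCGR (also its signs beside CYP19A1), PTCH1, the signs of the theca means and the ratios of smooth muscle markers were added after their values were seen. The members and lists were chosen with earlier results of these data known. Alternatives covered background, normalisation, filter, variance model, array weights, treatment of dye swaps, slide and each pair left out. The number of arrays limits the precision.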

Additional observations from a re-analysis of the deposited data

Results flagged for a closer look

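One value stood apart from the others of its group. NID2 was at a log2 intensity of 8.95 in the growing follicle of pair 2, while the other growing follicles lay between 7.19 and 7.26, close to the negative controls. It was the only one among 36 groups of 4 values examined for the 12 probes (growing levels, atretic levels and pair ratios), and chance marks about 1 in 20 such groups. In the same follicle, LAMA1 (15.72) and the brightest LAMC1 probe (12.57) also had their highest level of the 8 follicles.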

How the results depend on the processing

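HSPG2 kept its direction in every alternative run (-1.99 to -1.13) and its side of the threshold in all but the one without pair 2 (-1.40). LAMA1 and LAMB1 kept their direction. LAMA1 passed the study's threshold with median centring (0.92), array weights (0.98), growing follicles in Cy5 only (1.02), the replicate block (0.86, the same with a dye term) and no replicate block (0.86), and ran from 0.63 to 1.32 with a pair left out. LAMB1 passed with the replicate block (1.51) and ran from 0.77 to 2.73 with a pair left out. NID1 was at 0.89 on the arrays with the atretic follicle in Cy5 and at -0.036 on the slide with pairs 1 to 3 and the growing follicle in Cy5, a setting chosen after seeing the data. On that slide LAMA5 was at -0.40, LAMB2 at -0.0485, NID2 at -0.11 and AGRN at 0.0569, and the dimmest LAMC1 probe passed at 0.99. LAMA4 turned to -0.0194 with the atretic follicle in Cy5, LAMA5 to -0.00857 with median centring and -0.36 with the growing follicle in Cy5, and NID2 to -0.0866 in the latter. AGRN turned with plain subtraction (0.00042), the authors' ratios (0.00026), loess only (0.0108), median centring (0.0508) and the atretic follicle in Cy5 (0.0508). With a pair left out, the ranges were 0.06 to 0.30 for LAMA4, -0.083 to 0.26 for LAMA5, -0.0102 to 0.52 for LAMB2, -0.59 to -0.03001 for LAMC1, 0.40 to 0.49 for NID1, -0.15 to 0.46 for NID2, -0.0579 to 0.0752 for AGRN and -1.99 to -1.13 for HSPG2. The cause of these changes was not tested.

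Of the 12 member probes, 3 passed with the replicate block and 2 with median centring, array weights, the block with a dye term, no block, either dye orientation or that slide alone, and 1 to 3 with a pair left out. Over all probes the count past the study's threshold was 2243 with the replicate block, 2161 with a dye term, 2247 with no block, 2565 with the atretic and 2188 with the growing follicle in Cy5, and 781 (without pair 4) to 3401 (without pair 1) with a pair left out, against 1275. Past the adjusted threshold were 21, 17 and 615 with the block, the dye term and no block, and 0 in the others. Having no block counts both arrays of a pair as independent, although they hold the same extracts. The block came close to this for HSPG2, LAMA1 and LAMB1. Its SEs were 0.320, 0.279 and 0.673, against 0.318, 0.270 and 0.702 with no block. The share of higher calls was 51.5%, and 72.8% with median centring. The median over the member genes moved by less than the spread between pairs throughout, from -0.04 to 0.30, and was below 0 only with growing follicles in Cy5, on all arrays or on that slide. The block is the pair of follicles hybridised together. With a minimum of 8 for the mean log2 intensity, 6 member probes had no value. Dim spots limit LAMA4, LAMA5, NID1, NID2, AGRN and the third LAMC1 probe.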

Other observations

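In cattle, focimatrix appears in follicles whose granulosa cells are gaining steroid synthesis, so the steroidogenic genes on the list are set beside LAMB1, the member of widest range. LAMB1 had pair ratios of -2.17, 1.86, 3.71 and 2.61. CYP11A1, which starts steroid synthesis, had 3.47, -0.71, -3.78 and -2.60, and its redox partner FDX1 had 1.04, -0.62, -0.03 and 0.49. STAR, which brings cholesterol into the mitochondrion, had 4.28, -1.59, -1.87 and 0.86, and HSD3B1, which makes progesterone, had 4.80, -3.01, -1.72 and 1.44. Aromatase (CYP19A1) had 4.48, 1.38, -3.98 and 0.66, with mean ratios of -0.04 and 0.19 for its other probes. All 5 genes thus had the sign opposite to LAMB1 in pairs 1 and 3. In pair 2 CYP19A1 shared its sign, and in pair 4 all but CYP11A1 did. None of the 5 passed the study's threshold, and no correlation between these genes and LAMB1 across follicles was computed. The opposite signs in pairs 1 and 3 were neither particular to LAMB1 nor shared by all members. The middle LAMC1 probe (-1.03 and 0.48) and the dim LAMA5 (-0.50 and 0.38) and AGRN (-0.07 and 0.16) had them too. LAMB2, at 0.99, -0.22, -0.60 and 0.79, had the signs of STAR, HSD3B1 and FDX1 in every pair. The brightest LAMC1 probe, at 0.70, -0.99, -0.56 and -0.23, had those of CYP11A1. The other LAMC1 probes did not, at -1.03, -0.47, 0.48 and -0.39 (middle) and 0.35, 1.504, 0.50 and -0.34 (dimmest).

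For the members with the widest range of level, the named genes of the most similar pattern over the 8 follicles were looked up among 13624 others. For LAMB1 (range 4.19) they were HBP1, a transcriptional repressor, the phosphatase PPEF1 and SH3RF3, with Pearson correlations of 0.990, 0.981 and 0.980. For HSPG2 (range 3.71) they were the topoisomerase TOP1, PSD and the homeobox gene HOXC4, each at 0.993 or 0.994. For LAMA1 (range 1.83) they were RCVRN, RNF10 and the RNA decay factor UPF2, at 0.993, 0.981 and 0.962. These are descriptions, as the genes were chosen for their likeness and the follicles of a pair share their arrays.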
